A study of Mus musculus with 4 samples.

Results

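The regions described here are 1465 peaks of open chromatin that lie beside genes and were called in intestinal organoids after 72 h of BMP2 but not before it. They were chosen by 3 criteria: a call in the 72 h library at a p-value threshold of 1e-10, no overlap of even 1 bp with a 0 h peak called at 1e-05, and a midpoint outside every protein-coding RefSeq gene, over 1 kb and up to 50 kb from the nearest one. They are called 72 h-only flanking peaks below, and 1e-10 peaks are called strict. The 72 h list held 24932 strict peaks on chromosomes 1 to 19 and X, of which 4513 were 72 h-only anywhere. The flanking ones made up 32.5% of those (95% interval 31.1 to 33.8). Because the calls at 0 h and 72 h chose the peaks, their presence at 72 h and absence at 0 h is a description and not a result.

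Open chromatin was mapped with ATAC-seq, in which the Tn5 transposase cuts accessible DNA, in organoids derived from small intestinal (jejunal) crypts of C57BL/6J mice, and each library was made from 30000 cells. The 0 h organoids were kept in medium with CHIR99021, valproic acid, EGF, Noggin and R-spondin. The 72 h organoids had CHIR99021, valproic acid and Noggin taken away and 100 ng/mL BMP2 added, while EGF and R-spondin are shared by both groups. The effects of BMP2 and of the medium cannot be told apart. There was 1 library per time point, so no difference below has a replicate error and no p-value is given. Intervals are exact Clopper-Pearson 95% intervals that cover counting error only. The peak rows carry no score and no read count, so the depth is unknown, and "called" means listed. In bulk organoids, a change in the share of a cell type and a change within its cells cannot be told apart.

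Enhancers are stretches of open DNA outside promoters where transcription factors bind and act on genes at a distance. In the small intestine, HNF4, HNF1, CDX and GATA factors bind such sites near genes of absorptive enterocytes. BMP ligands, which act through receptors and SMAD proteins, are strongest toward the villus tip, while Wnt signals and BMP antagonists such as Noggin maintain the crypt.

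The DNA letters under most of the 1465 peaks were not analysed here, since no genome sequence was used. 2 kinds of sequence from the RefSeq promoter table (GRCm38.p6) bear on them. The first is the promoters of genes with a 72 h-only flanking peak whose start was also called at 72 h only. There were 45 such genes, and 13 motifs were searched in the 300 bases around each start, on both strands. Start calls, unlike the regions, were taken from the 1e-05 lists of both libraries, so such a start need not be strict. The letters CAAAGTCCA, a form of the HNF4 site, were in 6 of the 45 windows (13.3%, 5.05 to 26.8). They were in 0.475% of the windows of all 17274 protein-coding genes, and in 0.723% of the 5117 windows of at most 50% GC. The genes were Alpi (intestinal alkaline phosphatase), Btnl2 (a butyrophilin-like protein), Cyp2c65 and Cyp3a11 (cytochromes P450), H2-T3 (a non-classical MHC class I protein) and Hsd3b3 (a 3-beta-hydroxysteroid dehydrogenase). In 5 of the 6 the letters lay before the start, and the 250 bases before those starts are shown because they hold the match. Capitals mark those HNF4 letters, TTTATNG for CDX proteins, GTTAATNAT for HNF1 proteins, TATAAA for the TATA box of core promoters, AGATAAG for the GATA family of zinc finger proteins, and the reverse complement of each. A CDX match can overlap a TATA box match.
Alpi: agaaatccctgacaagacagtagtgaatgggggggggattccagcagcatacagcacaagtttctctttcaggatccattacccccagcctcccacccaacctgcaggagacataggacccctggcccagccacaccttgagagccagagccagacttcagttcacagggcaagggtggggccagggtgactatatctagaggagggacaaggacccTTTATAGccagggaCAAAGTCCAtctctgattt
Btnl2: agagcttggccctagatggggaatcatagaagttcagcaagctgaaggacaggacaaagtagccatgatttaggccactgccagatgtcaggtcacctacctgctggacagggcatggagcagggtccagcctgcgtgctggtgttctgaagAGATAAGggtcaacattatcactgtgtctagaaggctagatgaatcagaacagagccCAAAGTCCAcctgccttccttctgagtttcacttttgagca
Cyp2c65: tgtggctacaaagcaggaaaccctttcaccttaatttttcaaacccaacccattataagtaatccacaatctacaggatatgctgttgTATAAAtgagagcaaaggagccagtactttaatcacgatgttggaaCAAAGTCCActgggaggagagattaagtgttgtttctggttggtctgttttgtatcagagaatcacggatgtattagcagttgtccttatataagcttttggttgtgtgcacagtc
Cyp3a11: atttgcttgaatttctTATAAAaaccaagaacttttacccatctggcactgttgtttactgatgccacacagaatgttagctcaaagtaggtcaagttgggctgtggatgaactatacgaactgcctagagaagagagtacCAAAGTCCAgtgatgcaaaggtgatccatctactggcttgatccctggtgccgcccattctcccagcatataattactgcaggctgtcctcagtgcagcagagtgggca
H2-T3: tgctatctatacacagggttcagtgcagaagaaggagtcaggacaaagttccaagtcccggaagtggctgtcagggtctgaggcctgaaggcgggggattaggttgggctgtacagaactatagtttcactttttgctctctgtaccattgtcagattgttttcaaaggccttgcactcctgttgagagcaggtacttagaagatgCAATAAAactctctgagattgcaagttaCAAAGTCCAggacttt

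These 5 were picked for holding the letters, so they show where the match lies and not how common it is. The promoters of Mgam (maltase-glucoamylase), Fabp1 (a fatty acid binding protein), Slc2a2 (the GLUT2 sugar transporter) and Apoa4 (an apolipoprotein of chylomicrons) are shown beside them, since all 4 starts were also called at 72 h only and none holds the HNF4 letters. None of these 4 genes had a strict 72 h-only peak assigned at a gene end. Slc2a2 and Apoa4 hold none of the 5 marked motifs in these 250 bases. Only the exact letters were searched, and Apoa4 holds the similar caaagttca.
Mgam: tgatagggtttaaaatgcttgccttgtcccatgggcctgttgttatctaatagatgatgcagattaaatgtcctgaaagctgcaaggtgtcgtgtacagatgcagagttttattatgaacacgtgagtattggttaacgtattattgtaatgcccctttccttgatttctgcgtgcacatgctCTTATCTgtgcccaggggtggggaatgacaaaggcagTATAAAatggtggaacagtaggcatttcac
Fabp1: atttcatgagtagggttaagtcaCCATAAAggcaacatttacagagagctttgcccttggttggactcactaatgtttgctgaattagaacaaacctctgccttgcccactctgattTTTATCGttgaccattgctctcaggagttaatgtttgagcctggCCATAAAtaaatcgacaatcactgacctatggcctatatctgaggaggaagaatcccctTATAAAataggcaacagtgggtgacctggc
Slc2a2: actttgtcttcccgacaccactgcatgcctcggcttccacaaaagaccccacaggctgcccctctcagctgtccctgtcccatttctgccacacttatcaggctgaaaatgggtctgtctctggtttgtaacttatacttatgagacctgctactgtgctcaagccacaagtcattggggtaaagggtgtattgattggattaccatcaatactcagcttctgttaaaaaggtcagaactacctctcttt
Apoa4: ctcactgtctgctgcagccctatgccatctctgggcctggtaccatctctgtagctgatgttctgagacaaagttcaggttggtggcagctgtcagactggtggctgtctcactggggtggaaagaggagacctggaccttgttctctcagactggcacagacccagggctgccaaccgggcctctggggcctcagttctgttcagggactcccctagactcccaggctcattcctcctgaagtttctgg

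The second kind is sequence from inside the regions themselves. Of the 1465 peaks, 27 reached a RefSeq promoter window, and every one of those windows belonged to a noncoding gene. In 4 cases the whole window lay in the peak and the start was within 10 bp of its middle, so that the 250 bases before the start are bases of a 72 h-only flanking peak. Gm40264 starts in a peak 37.6 kb from Crot (a peroxisomal carnitine acyltransferase), Gm51802 in one 19.1 kb from Chst3 (a chondroitin sulfotransferase), Gm12223 in one 4.56 kb from Csf2 (the cytokine GM-CSF) and 5530601H04Rik in one 9.6 kb from Pbdc1. They are shown, with the same capitals, because the start of the window lies at the centre of the peak; 14 windows in all lay wholly inside one.
Gm40264: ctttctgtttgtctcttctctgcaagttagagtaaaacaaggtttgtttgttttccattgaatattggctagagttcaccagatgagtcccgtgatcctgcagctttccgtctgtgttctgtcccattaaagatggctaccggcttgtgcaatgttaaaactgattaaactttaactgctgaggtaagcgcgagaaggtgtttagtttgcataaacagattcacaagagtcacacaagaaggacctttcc
Gm51802: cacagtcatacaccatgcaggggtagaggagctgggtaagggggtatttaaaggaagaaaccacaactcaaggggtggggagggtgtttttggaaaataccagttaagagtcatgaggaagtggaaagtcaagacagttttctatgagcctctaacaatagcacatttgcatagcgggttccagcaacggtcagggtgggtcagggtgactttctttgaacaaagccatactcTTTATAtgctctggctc
Gm12223: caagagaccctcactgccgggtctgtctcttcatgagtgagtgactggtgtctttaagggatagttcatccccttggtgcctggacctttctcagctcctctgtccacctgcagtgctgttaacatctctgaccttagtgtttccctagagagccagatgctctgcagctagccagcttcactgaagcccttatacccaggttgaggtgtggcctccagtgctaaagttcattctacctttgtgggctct
5530601H04Rik: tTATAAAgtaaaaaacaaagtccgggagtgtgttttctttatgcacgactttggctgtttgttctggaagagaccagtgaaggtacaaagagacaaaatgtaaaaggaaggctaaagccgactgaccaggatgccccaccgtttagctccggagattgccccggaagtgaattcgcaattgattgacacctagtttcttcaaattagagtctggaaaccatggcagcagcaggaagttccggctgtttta

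Across the 28 noncoding windows that a 72 h-only flanking peak reached, the median GC content was 49.5%, beside 48.3% over all 11573 noncoding windows. These values are of whole windows, of which 14 lay wholly inside a peak, so they also cover bases outside the peaks. The HNF4 letters were in 0 of the 28, which allows a share of up to 12.3%, beside 0.518% of all noncoding windows. CDX letters were in 2 of the 28 and GATA letters in 2 of the 28. These 2 were the windows of Gm33218 and Gm33141, each in a peak assigned to Ces2c, and their 300 bases are identical. The 2 Ces2c peaks therefore lie in near-identical copies, and reads from one could have been placed on the other.

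Peaks beside genes were called in 1 library more often at 72 h than at 0 h. Of the 4919 strict flanking peaks at 72 h, 29.8% (28.5 to 31.1) had no 0 h peak, where the share over all strict 72 h peaks was 18.1%. The share was not particular to flanking peaks. It was 2183 of 7716 (28.3%, 27.3 to 29.3) inside genes and 33.4% (31.2 to 35.6) over 50 kb from a gene. At gene ends, within 1 kb of a boundary, it was 2.52%. With the libraries exchanged, 358 of 3239 strict flanking peaks at 0 h (11.1%, 9.99 to 12.2) had no 72 h peak, where the share over all strict 0 h peaks was 6.4%. The 0 h-only share was 487 of 5120 (9.51%) inside genes, 14.1% over 50 kb from a gene and 2.58% at gene ends. There were thus 4.09 times as many 72 h-only as 0 h-only flanking peaks (3.64 to 4.61). These shares come from the calls that chose the regions. The 0 h lists were shorter, with 19820 strict and 35627 1e-05 peaks on these chromosomes, beside 24932 and 41036 at 72 h. The ratio was 1.77 when 1e-05 peaks stood in for strict ones, and 2.73 when only a strict peak of the other library counted as an overlap.

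The excess at 72 h was found at every distance from the gene. The 72 h-only share was 26.8% (22.5 to 31.6) of the strict peaks 1 to 2 kb from a gene, 29.3% at 2 to 5 kb, 28.7% at 5 to 10 kb, 31.1% at 10 to 20 kb and 30.4% (28.1 to 32.8) at 20 to 50 kb. The 0 h-only share ran from 8.65% (5.56 to 12.7) in the nearest of these ranges to 12.4% (10.4 to 14.7) in the farthest. Intervals of neighbouring ranges overlapped in both libraries, and in every range the 72 h interval lay above the 0 h interval.

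**Figure D1:**
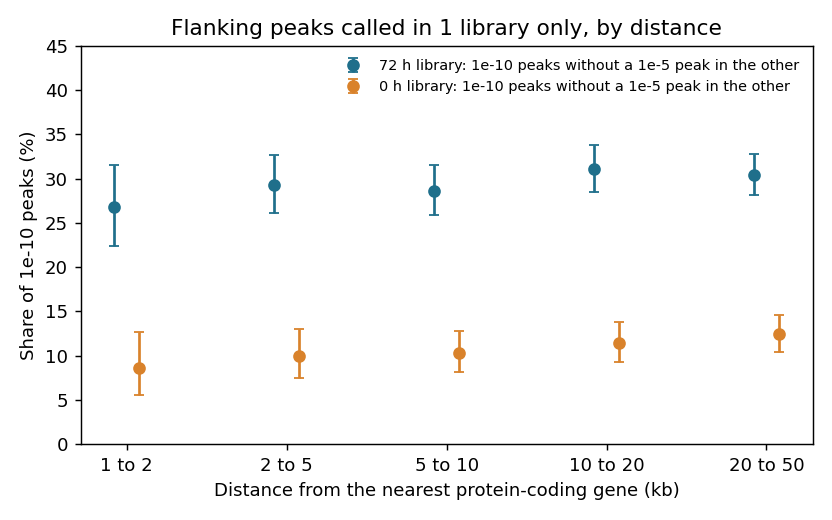
Share of strict (1e-10) flanking peaks with no 1e-05 peak in the other library (y axis, %), by distance from the nearest protein-coding gene (x axis, kb). Points are the 72 h library (blue) and the 0 h library (orange), with exact 95% intervals of the counting error. The 72 h shares lie between 26.8% and 31.1%, and the 0 h shares between 8.65% and 12.4%.

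The 72 h-only flanking peaks lay a median of 12.53 kb from the nearest gene (quartiles 5.52 and 23.5 kb), beside 13.8 kb for the 0 h-only ones and 11.6 kb for the 2364 strict flanking peaks called strictly in both libraries. The nearest 0 h peak was a median of 9.36 kb away, and 424 of the peaks (28.9%, 26.6 to 31.3) had one within 5 kb. For the 0 h-only flanking peaks, the nearest 72 h peak was at a median of 9.17 kb. For the 2183 strict 72 h-only peaks inside genes, the nearest 0 h peak was at 12.6 kb. Where the strand of the gene was known, 692 of 1154 peaks (60.0%, 57.1 to 62.8) lay before its start and the others past its end, against 58.3% (52.3 to 64.1) of 0 h-only and 54.4% (52.1 to 56.7) of shared flanking peaks. The 72 h-only and shared intervals do not overlap.

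Some of the 72 h-only flanking peaks lay close together. Another one was within 12.5 kb of 305 of them (20.8%, 18.8 to 23.0), compared with 6.98% (4.57 to 10.1) of the 0 h-only flanking peaks, a set of fewer peaks, 17.7% of the 72 h-only peaks inside genes and 33.5% of the shared ones. Joined at that distance, the 305 formed 143 groups, of which 15 held at least 3 peaks. On the chromosomes, the 72 h-only share of strict flanking peaks ran from 23.6% (17.98 to 30.1) on chromosome 15 to 35.7% (30.5 to 41.1) on chromosome 5.

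The 1465 peaks had 1230 nearest genes, or 8.09% of the 15197 protein-coding genes with a peak of either library. The 0 h-only flanking peaks had 340 nearest genes, or 2.24%. Most genes (1038) had a single 72 h-only flanking peak, and 33 had 3 or more. Of the 0 h-only kind, 1 gene had 3, the highest number there. Slc34a2, which encodes a sodium-phosphate cotransporter, had the most, with 6 peaks in 5 separate sites. They lay 30.7, 17.8, 6.74 and 6.17 kb before its start and 3.09 and 6.94 kb past its end, at chr5:53018306-53018906 for the first and chr5:53078307-53078907 for the last. Its start was called in both libraries. Fut8, which adds the core fucose to N-glycans, had 5 peaks, with 4 before the start at 20.3 to 36.7 kb and 1 past the end at 26.0 kb. Fut8 also had 1 strict 0 h-only flanking peak.

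Mgam, the brush border enzyme of starch digestion, had 4. A pair of them overlap, at 2.44 and 2.26 kb before the start, and the others lay 26.1 and 48.2 kb past the end. It also had 3 strict 72 h-only peaks inside the gene, and its start was called at 72 h only. Cldn3, a tight junction claudin, had 3 peaks within 7.02 kb, at 9.91, 4.75 and 2.90 kb before its start, and no 0 h peak lay between the first and the last. Bche (butyrylcholinesterase) had 3 before its start in a stretch of 7.27 kb, and Arl4a (an ARF-like GTPase) 3 past its end in 7.16 kb, in each case with no 0 h peak between them. The largest group held 5 peaks over 26.4 kb between Cdrt4 and Tekt3 (a tektin of sperm flagella), with 1 0 h peak among them, and Tekt3 had 4 of its own in all. Klrb1a (a receptor of natural killer cells) and Actb (beta-actin) had 3 each.

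Rhou, a small GTPase induced by Wnt signals, and N4bp1, an RNase-domain protein, also had 4 each. At both genes 3 of the 4 peaks lay where the numbers of neighbouring 0 h peaks skip, so a 0 h row at that place may not be among those used here, and 1 peak at each gene lay elsewhere. Over all 1465 peaks, 140 (9.56%) lay at such a skip, and 1325 peaks and 1120 genes remained without them. Some genes of the lists below had every 72 h-only flanking peak at a skip. They were Enpp7, Cobl, Slc2a5, Cyp3a11, Abcg2, Rxra, Irf1, Nfe2l2, Pmepa1, Lgr5, Slc12a2, Notch3, Bcas1 and Krt19. At Mogat2, 1 of the 2 peaks lay at a skip.

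**Figure D2:**
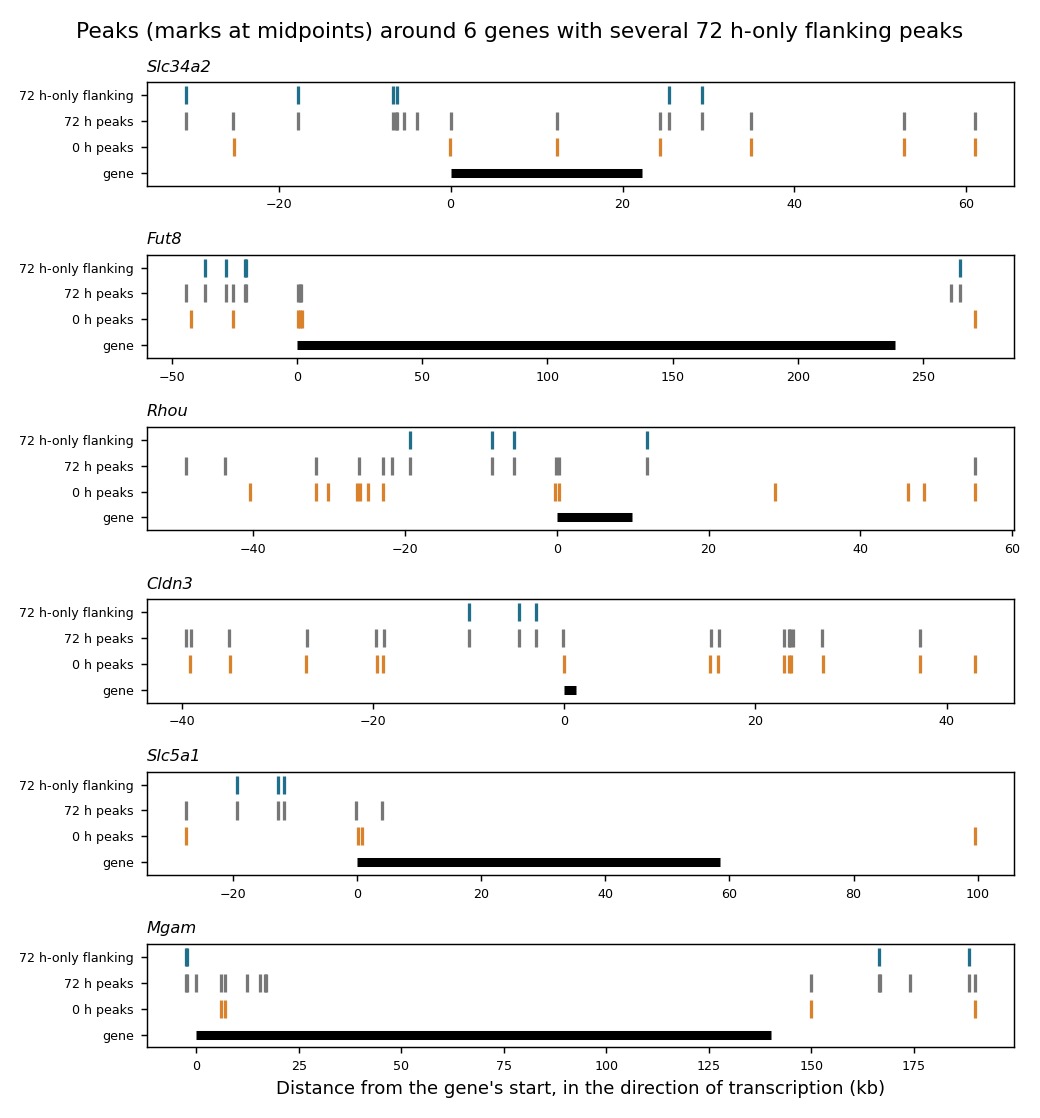
Peak midpoints around 6 genes with several 72 h-only flanking peaks, by distance from the gene's start in the direction of transcription (x axis, kb), from 50 kb before to 50 kb past each gene. Rows show the gene body (black), 0 h peaks at 1e-05 (orange), 72 h peaks at 1e-05 (grey) and 72 h-only flanking peaks of the named gene (blue). At Cldn3 the 3 blue marks lie between 9.91 and 2.90 kb before the start with no 0 h peak among them, and at Slc34a2 the 6 lie on both sides of the gene.

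Cyb5a, which encodes cytochrome b5, had 4 peaks at 4.55 to 23.6 kb, in a group on chromosome 18 spanning 19.1 kb with 2 0 h peaks among them.

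The genes of absorptive cells had 72 h-only flanking peaks more often than the 8.09% of all genes with a peak. In the list of brush border enzymes and structure, 10 of 31 genes had at least 1 (32.3%, 16.7 to 51.4), and 1 of 31 had a 0 h-only flanking peak. Besides Mgam, these included Mep1b (a meprin protease) with peaks at 4.27 and 13.6 kb, Enpp7 (alkaline sphingomyelinase) at 5.26 and 12.0 kb and Enpep (glutamyl aminopeptidase) at 10.3 and 18.9 kb. Without the peaks at skips, which include both of Enpp7, the count was 8. Cobl, Mme, Alpi, Eps8l3, Sis and Dpp4 made up the 10.

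Among transporters of sugar, peptides, amino acids and ions, 9 of 35 genes had one (25.7%, 12.5 to 43.3), and none had a 0 h-only one. Slc5a1, the sodium-glucose cotransporter SGLT1, had 3 peaks at 11.7, 12.8 and 19.3 kb before its start. Slc2a2 had one 2.27 kb before its start and one 8.74 kb past its end, and Slc26a3 (a chloride-bicarbonate exchanger) had 2 at 11.01 and 35.2 kb. The list also held Slc40a1 with 2, and Slc39a4, Slc2a5, Slc15a1 and Slc30a10 with 1 each.

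For lipid and sterol handling the count was 11 of 42 genes (26.2%, 13.9 to 42.0), with 2 of 42 for 0 h-only peaks. Mogat2 (a monoacylglycerol acyltransferase) had peaks at 3.71 and 4.13 kb, Scarb1 (a scavenger receptor for lipoprotein lipids) at 5.31 and 18.1 kb and Fabp1 at 14.7 and 26.8 kb before its start. Apoa1 (the main apolipoprotein of HDL) had 1 at 1.51 kb and Apoa4, its neighbour, 1 at 1.87 kb. Of the genes of xenobiotic metabolism, 16 of 43 (37.2%, 23.0 to 53.3) had a 72 h-only flanking peak and 2 a 0 h-only one. Ces2b and Ces2c (carboxylesterases) had 2 each, those of Ces2c being the uncertain ones in identical sequence, and Cyp3a13 and Cyp2d26 had 1 each at 1.15 and 2.18 kb. Several of these genes stand in clusters of similar copies, where the placing of reads is less certain.

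Genes of both ends of the villus were among them. In the villus tip list, 7 of 29 genes (24.1%, 10.3 to 43.5) had a 72 h-only flanking peak, with 2 each at Krt20 (a keratin of mature enterocytes; 3.60 and 16.1 kb) and Atf3 (a stress-response transcription factor; 12.9 and 20.4 kb), and 1 each at Prss30 and Ceacam20. In the villus bottom list of antimicrobial and immune genes, 7 of 22 had one (31.8%, 13.9 to 54.9). Il18, a cytokine of the epithelium, had 2 at 3.80 and 5.15 kb, and Lypd8, Saa1 and Dmbt1 had 1 each at 1.59, 1.77 and 4.28 kb. In each list 1 gene had a 0 h-only flanking peak.

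Of the intestinal transcription factors, 12 of 53 (22.6%, 12.3 to 36.2) had a 72 h-only flanking peak and 6 had a 0 h-only one (11.3%, 4.27 to 23.0), so that both intervals lay above the share of all genes, 8.09% and 2.24%. Without the peaks at skips, which include both of Nfe2l2, 9 of the 53 had a 72 h-only one. Nfe2l2 (NRF2, of the oxidative stress response) had 2 at 11.9 and 19.1 kb and Klf6 2 at 43.0 and 47.2 kb. Hnf4a had 1 at 2.55 kb.

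In the BMP pathway, 7 of 43 genes (16.3%, 6.81 to 30.7) had a 72 h-only flanking peak and 2 a 0 h-only one, and the interval includes the 8.09% of all genes. Of the ligands, Bmp2 had 2, at 35.7 and 48.1 kb. Of the receptors, Bmpr1a (a type I receptor) had 1 at 2.14 kb. Among the transducers and their inhibitors, Smad5 had 1 at 24.7 kb, Smad7 (an inhibitory SMAD) 1 at 10.2 kb, Skil (a SMAD corepressor) 1 at 7.01 kb and Pmepa1 (which binds receptor-activated SMADs) 1 at 44.7 kb. Of the target genes, Id3 had 1 at 1.58 kb.

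Crypt genes had counts whose intervals include the 8.09%. These were 5 of 38 stem cell and Wnt target genes (13.2%, 4.41 to 28.1), among them Ephb2 at 16.0 kb and Lgr5 at 37.3 kb, which fell to 3 of 38 without the peaks at skips, those of Lgr5 and Slc12a2; 3 of 23 Notch pathway genes (Hes1, Notch3 and Nrarp) and 1 of 28 cell cycle genes (Cdk1). Of the secretory lists, goblet cell markers had 5 of 15 (33.3%, 11.8 to 61.6), namely Bcas1 with 2 peaks and Tff3, Agr2, Clca1 and Spink4 with 1 each. Without the peaks at skips, those of Bcas1, the goblet count was 4 of 15. Tuft cell markers had 3 of 15 (Sh2d7, Sh2d6 and Alox5ap), Paneth cell markers 1 of 7 (Guca2b) and enteroendocrine markers 1 of 21 (Reg4). The fetal-like and injury-response list had 5 of 21 (23.8%, 8.22 to 47.2), with 2 peaks at Areg, an EGF receptor ligand, and 1 each at Ereg, Krt7, Krt19 and Anxa1. Without the peak at a skip, that of Krt19, the fetal-like count was 4 of 21. Markers of cells that an epithelial organoid should lack had 0 of 9 genes for fibroblasts and smooth muscle, 1 of 4 for immune cells (Ccr2) and 1 of 10 for endothelium (Tek).

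**Figure D3:**
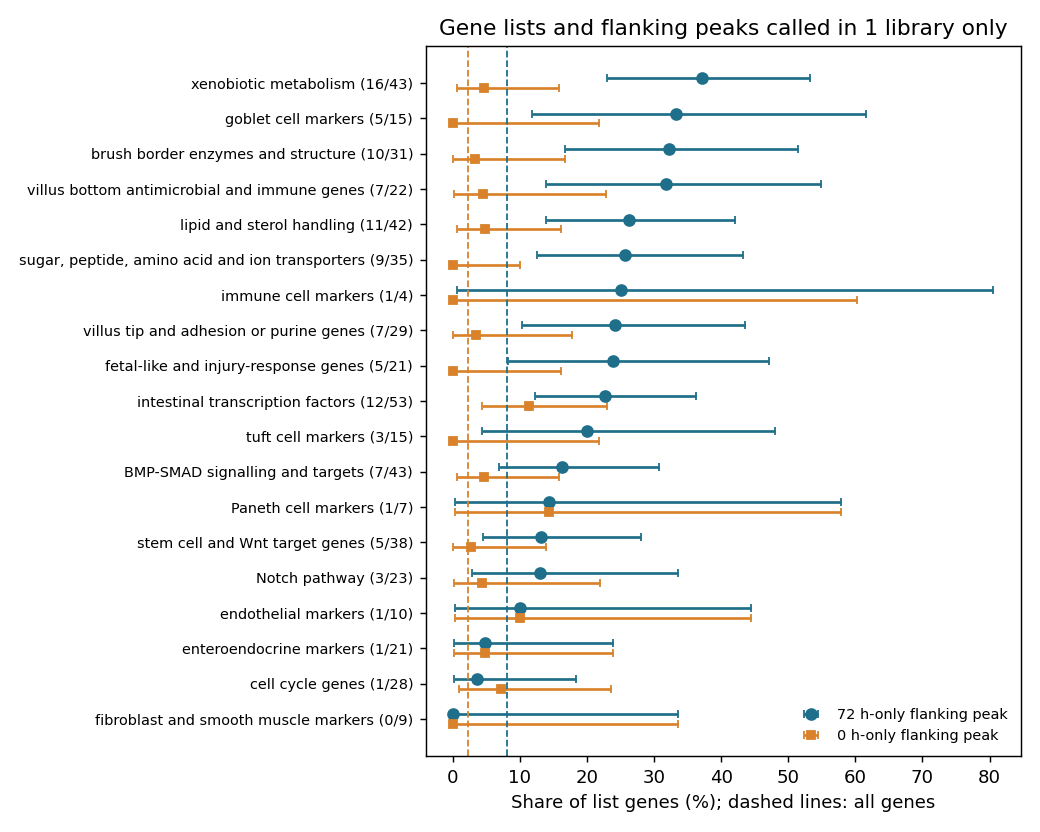
Share of each list's genes with at least 1 72 h-only (blue circles) or 0 h-only (orange squares) strict flanking peak (x axis, %), for 19 lists, among genes with a peak of either library. Bars are exact 95% intervals, dashed lines are the shares over all genes (8.09% and 2.24%), and the labels give the number with a 72 h-only peak and the number of genes. The xenobiotic, goblet, brush border, both villus, lipid, transporter, transcription factor and fetal-like lists have intervals above the blue line, and the transcription factor list also has its 0 h-only interval above the orange line. All peaks are drawn, those at skips included. Without those at skips, xenobiotic genes fell from 16 to 14, brush border from 10 to 8 and transcription factors from 12 to 9. Transporters fell from 9 to 8, and goblet and fetal-like genes from 5 to 4 each. No intervals were computed for these lower counts.

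A gene with more flanking peaks has more chances to have a 72 h-only one, so the peaks were also counted in place of genes. Of the strict flanking 72 h peaks at brush border genes, 17 of 30 were 72 h-only (56.7%, 37.4 to 74.5), at transporter genes 19 of 34 (55.9%, 37.9 to 72.8) and at xenobiotic genes 18 of 33 (54.5%, 36.4 to 71.9), all with intervals above the 29.8% of all strict flanking peaks. The intervals treat peaks as independent, which peaks at 1 gene are not. Slc34a2 held 6 of the 19 and Mgam 4 of the 17, and some of these overlap. At lipid genes 14 of 30 were (46.7%, 28.3 to 65.7), at villus bottom genes 8 of 14 (57.1%, 28.9 to 82.3) and at goblet genes 6 of 17 (35.3%, 14.2 to 61.7), with intervals that include 29.8%. At villus tip genes 9 of 35 (25.7%), at transcription factor genes 16 of 74 (21.6%), at BMP genes 8 of 35 (22.9%) at stem cell and Wnt genes 5 of 21 (23.8%) and at fetal-like and injury-response genes 6 of 24 (25%) were 72 h-only. For these last 5 lists the 72 h-only share of peaks was below 29.8%, while there were 74 strict flanking peaks at the 53 transcription factor genes and 4919 at all 15197 genes.

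Genes with a 72 h-only flanking peak had a call at a gene end, that is, within 1 kb of either boundary, at 72 h only in 71 of 1230 cases (5.77%, 4.54 to 7.23), compared with 2.67% (2.41 to 2.95) of the 13967 genes with a peak but no 72 h-only flanking one. The reverse, a call at a gene end at 0 h only, was found in 2.85% (1.99 to 3.94) and 5.73% (5.35 to 6.13). Gene-end and start calls here are from the 1e-05 lists. A strict 72 h-only peak was assigned at a gene end at 44 of the 1230 genes (3.58%, 2.61 to 4.77), beside 1.69% of all genes with a peak. Where the start is known, a start peak at 72 h only was found in 45 of 968 genes with a 72 h-only flanking peak (4.65%, 3.41 to 6.17), in 1.85% (1.15 to 2.81) of the genes with a shared flanking peak and no 72 h-only one, and in 2.59% (1.05 to 5.27) of the genes with a 0 h-only flanking peak. Genes with a strict 72 h-only peak inside them had one in 45 of 1306 cases (3.45%, 2.52 to 4.58), an interval that overlaps that of the 4.65%. For most genes with a 72 h-only flanking peak the start was called in both libraries (635 of 968, 65.6%, 62.5 to 68.6). This was less often than for genes with a peak but no 72 h-only flanking one (74.0%, 73.2 to 74.8). The share was 77.2% with a 72 h-only peak inside, 69.1% (66.3 to 71.7) with a shared flanking peak and 63.3% (57.3 to 69.1) with a 0 h-only one. No start peak was called at 27.2% of genes with a 72 h-only flanking peak and 18.6% of genes with a peak but none of that kind.

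**Figure D4:**
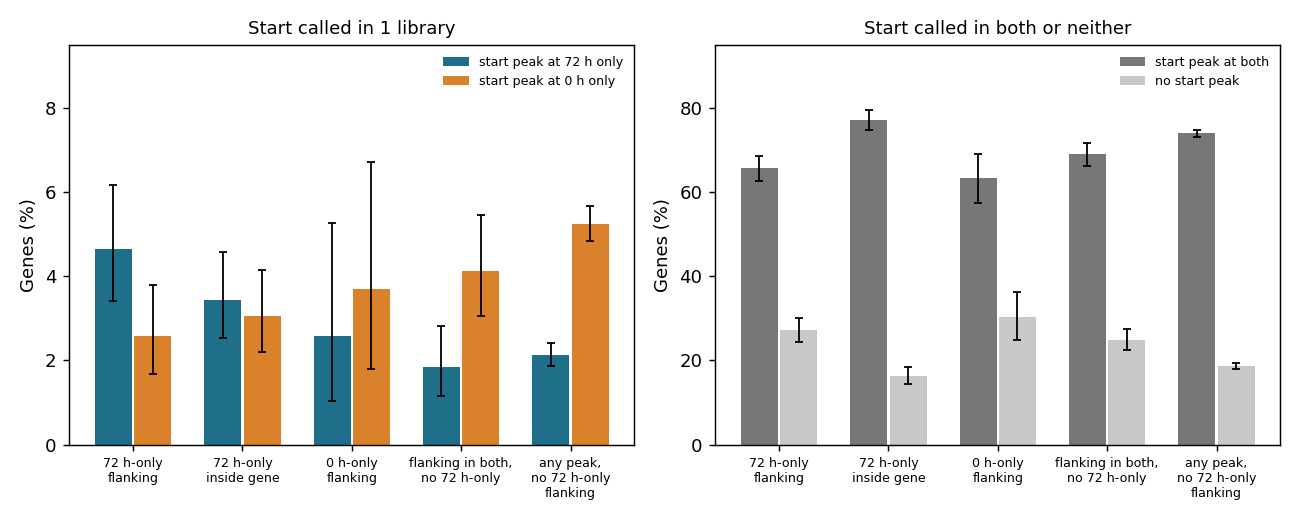
Share of genes (y axis, %) whose start was called at 72 h only or 0 h only (left) and in both libraries or neither (right), for genes with a 72 h-only flanking peak (968), a strict 72 h-only peak inside the gene (1306), a 0 h-only flanking one (270), a shared one and no 72 h-only one (1138), and any peak but no 72 h-only flanking one (11206). Start calls are from the 1e-05 lists. Bars carry exact 95% intervals, and the left and right axes differ in range. A start called at 72 h only is found in 4.65% of the first set, 3.45% of the set with a 72 h-only peak inside, whose interval overlaps it, and 1.85% of the set with a shared flanking peak.

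The 45 genes include Alpi, Sis (sucrase-isomaltase), Mgam and Enpp7 of the brush border list. Slc2a2 and Slc15a1 (the peptide transporter PEPT1) are of the transporter list, and Fabp1, Apoa4 and Npc1l1 (the cholesterol transporter) of the lipid list. Cyp2c55, Cyp2c65, Cyp2c66 and Cyp3a11 are of the xenobiotic list. Krt20 is of the villus tip list, Il18 and Nlrp6 (an inflammasome sensor) of the villus bottom list and Agr2 (a goblet cell disulfide isomerase) of the goblet list. The others of the 45 are on none of the 19 lists, among them Htr5a, Csf2, Olfr763 and Zfp819. Alpi had no 0 h peak assigned at all and 5 peaks at 72 h, with the flanking one 3.52 kb before its start. Fabp1, Npc1l1 and Il18 likewise had none at 0 h, and 4, 3 and 3 peaks at 72 h. The promoters of these 45 had a median GC content of 48.0%, beside 56.7% over all protein-coding genes and 64.3% for the 635 genes with a start called in both libraries. It was 52.3% for the 239 genes with a start called at 72 h only and no 72 h-only flanking peak.

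In addition to the HNF4 letters, HNF1 letters were in 3 of the 45 promoters (6.67%, 1.40 to 18.3; Il18, Npc1l1 and Tm4sf4), beside 0.799% of all windows and 1.99% of those of at most 50% GC. GATA letters were in 5 (11.1%, 3.71 to 24.1), beside 2.63% and 4.91%. CDX letters were in 10 (22.2%, 11.2 to 37.1), beside 9.95% and 19.2%, and TATA letters in 15 (33.3%, 20.0 to 49.0), beside 13.2% and 30.6%, so that both were near the share in windows of low GC. The HNF4 letters were in 0 of the 635 promoters called at both times, which allows up to 0.579%, and in 5 of 239 (2.09%, 0.683 to 4.81) of those called at 72 h only at genes without a 72 h-only flanking peak. Those 239 held HNF1 letters in 3.77% (1.74 to 7.03) and GATA letters in 4.18% (2.02 to 7.56). CDX letters were in 14.6% (10.4 to 19.8), TATA letters in 15.5% (11.1 to 20.7) and the letters CAGCTG in 20.1% (15.2 to 25.7). For each of these motifs other than HNF4, the interval overlapped that of the 45. The palindrome GTCTAGAC of SMAD3 and SMAD4 was in none of the 45 and in 0.22% of all windows. The GC-rich SMAD letters GGCGCC were in 1 of the 45 (2.22%), beside 15.9% of all windows and 1.43% of those of at most 50% GC. The KLF letters GGGNGTGG were in 3 (6.67%), beside 19.6% and 7.56%, so that both were near the share in windows of low GC. The E-box CAGCTG was in 11 (24.4%, 12.9 to 39.5), beside 15.2% and 12.2%. The AP-1 letters TGANTCA were in 4 (8.89%), beside 7.05% and 12.8%, and the ETS letters AGGAAGT in 4 (8.89%), beside 9.25% and 12.0%. The FOXA letters TGTTTAC were in 2 (4.44%), beside 2.95% and 5.32%, and the TCF letters CTTTGAT in 2 (4.44%), beside 3.28% and 5.92%. For AP-1, FOXA and TCF the share in the 45 was thus above that of all windows and below that of windows of low GC. Some of the 45 genes are close copies of each other (Cyp2c, Ugt2b), so their promoters are not independent. A match describes letters and not binding.

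The values just inside and just outside the limits of the rule were close. The nearest of the 72 h-only flanking peaks lay 1.01 kb from 2610507B11Rik and 1.01 kb from Rfxank, and the nearest left out lay 0.976 kb from 1700015G11Rik and 0.963 kb from Gm12789. At the outer limit, 49.97 kb from Sp3 and 49.96 kb from Zfp608 were kept, and 50.02 kb from Gm38664 and 50.05 kb from Atp2b1 were not.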

How the data were processed

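ATAC-seq peak lists of the 0 h and 72 h libraries were used and those of 24 h and 48 h were left unused. For the peak lists the authors name MACS2 2.2.7.1, cutadapt 1.9.1, bedtools 2.26.0, Bowtie2 2.4.1, deepTools 3.5.4, Picard 2.18.27 and SAMtools 1.3.1 with the mm10 build, per the submitters' processing notes. Settings, including any Tn5 shift, were not given in the sources used. The deposited rows hold a position and a name, mostly 601 bp wide, called per library. Positions are 1-based.

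Peaks were placed by midpoint on a RefSeq table (GRCm38.p6, the assembly of mm10); the promoter table gave strands. The placing and overlap functions were tested on simulated intervals. The regions and gene lists were chosen with earlier results of these data known. Genes were named by rule. The rule took the 12 with the most 72 h-only sites, and up to 4 per list by sites and then distance. It also took the 5 largest groups, all BMP genes with a peak, and the limits. Other list genes are named to complete a count or a set. Hnf4a, Apoa4 and Alpi are given with a distance outside the rule. The values of 1 gene that the rule names are not reported here. The plan had called for gene ends and for member sequences. Starts, the TATA motif, the comparison with windows of low GC, the count of peaks per list, the counts without peaks at skips, the printed promoters and the genes drawn were chosen after the data were examined. A first choice of 6 promoters by list (Mgam, Enpp7, Slc2a2, Slc15a1, Fabp1 and Apoa4) was replaced once 4 were seen to hold none of the marked letters. Start peaks were at first counted by overlap, which can count a flanking peak as a start peak, and then by midpoint. Computations used SciPy 1.17.1 and pandas 2.3.3 under Python 3.11.15, with figures drawn in matplotlib 3.10.9.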

Additional observations from a re-analysis of the deposited data

How the results depend on the processing

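The number of 72 h-only flanking peaks (1465), the genes nearest to them (1230) and their ratio to 0 h-only ones (4.09) depended most on the thresholds. They were 2555, 1978 and 2.73 when only strict peaks of the other library counted as an overlap, and 3980, 2809 and 1.77 with 1e-05 peaks in place of strict ones. Counting every gene within 50 kb gave 2663 genes. The flanking share of 72 h-only peaks (32.5%) was 30.3% when a 0 h peak had to cover at least 50% of the peak, 30.2% with the inner limit at 2 kb, 25.1% with the outer limit at 25 kb and 38.1% at 100 kb. The median distance to a gene (12.53 kb) was 13.7, 8.87 and 15.6 kb with those 3 limits and 8.37 kb with noncoding genes included; the limits change it by construction. The ratio stayed above 1 in each alternative run for it. Of 190 list counts under the alternatives, 50 moved by over 1.5 times. With all genes of the table, transporters fell from 9 to 4 genes, transcription factors from 12 to 4 and xenobiotic genes from 16 to 10, since a noncoding gene was then often the nearest.

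Chosen after seeing the data, windows of 500 bp around starts gave 44 genes with a start called at 72 h only in place of 45, and counting any overlap with the 1 kb window gave 49. Whole peaks in place of central bases were not run, for want of a genome. No paired analysis was possible because each time point is 1 library. Unknown depth limits every statement: a peak absent from a list may lie just under the threshold.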

Other observations

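Gene families, grouped by symbol after the data were examined, differed in how often their members had a 72 h-only flanking peak, beside 8.09% of all genes with a peak. The carboxylesterases (Ces) had 6 of 15 genes (40.0%, 16.3 to 67.7), the UDP-glucuronosyltransferases (Ugt) 6 of 16 (37.5%, 15.2 to 64.6), the cytochromes P450 (Cyp) 13 of 62 (21.0%, 11.7 to 33.2) and the solute carriers (Slc) 38 of 312 (12.2%, 8.76 to 16.3). Olfactory receptor genes (Olfr) had 13 of 70 (18.6%, 10.3 to 29.7), with 4 for 0 h-only peaks. Zinc finger genes named Zfp had 19 of 357 (5.32%, 3.23 to 8.19), Tmem genes 9 of 200 (4.50%, 2.08 to 8.37), and proteasome genes (Psm) 0 of 48, which allows up to 7.40%. Hox genes had 0 of 20 and collagen genes 0 of 25. Genes of a family often stand side by side, so these counts are not independent, and reads in close copies may be misplaced.

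The midpoint of 237 of the 1465 peaks (16.2%) lay inside a noncoding RefSeq gene. Other flanking peaks were not counted in this way, so the share has no comparison. A strict 72 h-only peak inside the gene was also present at 221 of the 1230 genes (17.97%, 15.9 to 20.2), beside 10.8% of all genes with a peak. A 0 h-only flanking peak was present at 52 of the 1230 (4.23%, 3.17 to 5.51), beside 2.24% of all genes with a peak.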
